A study of Mus musculus with 8 samples.

Results

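The DMRT genes encode transcription factors that share the DM domain, a zinc-binding motif that contacts DNA. The family is best known for its part in gonadal sex determination and in germ cells, and several members also act in the developing brain. *Dmrt1* is needed in the fetal testis and ovary, where its protein binds genes of pluripotency and of meiotic entry, among them *Stra8*. *Dmrtc2* encodes DMRT7, a protein of meiotic prophase that is required for the sex body of spermatocytes, the compartment in which the X and Y chromosomes are silenced. *Dmrt3*, *Dmrta1* and *Dmrta2* are known chiefly from the spinal cord and the cortex, and *Dmrtc1b* belongs to a small X-linked group of DMRT-like genes whose role is less clear.

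The DMRT genes *Dmrt1*, *Dmrt3*, *Dmrta1*, *Dmrta2*, *Dmrtc1b* and *Dmrtc2* are described here in the mouse ovary at E14.5, when female germ cells enter meiosis. They are 6 of 25239 gene symbols counted, and 6 of the 14249 genes with enough counts to be tested. *Dmrt1*, *Dmrtc1b* and *Dmrtc2* were chosen on their measured values, because they differed in opposite directions between the genotypes. The genotype difference of the 6 genes is therefore given as a description, without a test.

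Controls were *Bmpr1a* fl/fl ovaries and mutants (*Bmpr1a*-cKO, labelled cKO) were *Bmpr1a* fl/fl; *Oct4*-Cre Cre/WT ovaries, both on C57BL/6. BMPR1A is a receptor for bone morphogenetic proteins, and the tamoxifen-inducible Cre under *Oct4* control removes it from germ cells while the somatic cells of the ovary keep it. All dams, those of controls included, received 1 mg 4-hydroxytamoxifen and 0.5 mg progesterone on 3 days (9.5 dpc, 10.5 dpc, 11.5 dpc), and only cKO ovaries carried Cre, so that the effect of the Cre allele and that of losing *Bmpr1a* cannot be told apart. Each of 4 control and 4 cKO libraries held RNA from the pooled ovaries of 2 embryos, taken from 6 litters, and the litter of each pool was not given. Libraries had 8562961 to 15365052 counts, so that 3 counts were worth 0.189 to 0.358 CPM, the count relative to the TMM-scaled total of its library. In these whole-ovary libraries *Bmpr1a* stood at 199 to 237 CPM in controls and 185 to 209 CPM in cKO ovaries.

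A differentially expressed gene (DEG) had an absolute Log2-fold change (Log2FC) above 0.5 and a false discovery rate (FDR) below 0.05. Across all genes tested, 10.2% were DEGs, with 6.11% higher and 4.06% lower in cKO ovaries, and 27.9% had libraries that did not overlap between the genotypes. All 6 DMRT genes had an absolute Log2FC above 0.5, 3 in each direction, and none of the 6 overlapped between genotypes, which their choice in part fixed. The 1449 DEGs split into 871 higher and 578 lower, whereas scaling each library to its summed counts of the germ cell markers *Ddx4*, *Dazl*, *Mael* and *Dnd1* (germ cell marker scaling) gave 311 higher and 3678 lower and put the median Log2FC of all genes at -0.390, against -0.004. The directions of the 6 DMRT genes were the same under that scaling. Of its markers, *Dazl* and *Dnd1* were themselves higher DEGs (Log2FC of 0.63 and 0.78) and *Mael* was a lower one (-0.80). The scaling therefore does not stand for germ cell number alone. Whether a change in an ovary reflects fewer cells of a type or less RNA per cell cannot be told apart in these libraries.

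The promoters of *Dmrtc2* and *Dmrtc1b* are shown because each gene lies head to head with another gene that differed in the same direction. Each window runs from 250 bases before the RefSeq start of the gene to 50 bases into it (GRCm38.p6, the assembly of mm10, strand of the DMRT gene), and capitals mark the bases between the pair in GENCODE vM21. The *Dmrtc2* window is chr7:24869807-24870106 on the plus strand, the *Dmrtc1b* window chrX:102707631-102707930 on the plus strand, and that of its close relative *Dmrtc1a* chrX:102908638-102908937 on the minus strand.
Dmrtc2: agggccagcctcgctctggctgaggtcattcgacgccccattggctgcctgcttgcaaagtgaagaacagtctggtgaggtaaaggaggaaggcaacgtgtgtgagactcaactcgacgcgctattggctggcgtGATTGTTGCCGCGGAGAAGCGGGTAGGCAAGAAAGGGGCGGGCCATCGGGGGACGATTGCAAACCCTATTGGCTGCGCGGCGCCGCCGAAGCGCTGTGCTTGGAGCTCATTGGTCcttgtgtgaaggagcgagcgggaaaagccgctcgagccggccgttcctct
Dmrtc1b: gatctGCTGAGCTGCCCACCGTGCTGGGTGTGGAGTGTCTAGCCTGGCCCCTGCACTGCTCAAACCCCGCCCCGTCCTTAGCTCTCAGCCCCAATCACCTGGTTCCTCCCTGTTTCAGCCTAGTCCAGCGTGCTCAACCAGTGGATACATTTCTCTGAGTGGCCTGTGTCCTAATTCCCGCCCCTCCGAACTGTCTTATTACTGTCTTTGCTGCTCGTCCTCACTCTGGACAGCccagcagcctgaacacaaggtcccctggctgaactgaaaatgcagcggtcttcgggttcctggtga
Dmrtc1a: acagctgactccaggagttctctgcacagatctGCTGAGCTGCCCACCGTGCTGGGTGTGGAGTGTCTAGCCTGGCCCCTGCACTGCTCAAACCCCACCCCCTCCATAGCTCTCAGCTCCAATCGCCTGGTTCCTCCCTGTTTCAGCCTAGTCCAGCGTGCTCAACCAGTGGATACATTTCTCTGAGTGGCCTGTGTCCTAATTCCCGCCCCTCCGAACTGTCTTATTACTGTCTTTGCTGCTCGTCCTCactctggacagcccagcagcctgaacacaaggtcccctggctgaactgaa
The capitals separate *Dmrtc2* from *Lypd4* (115 bases) and *Dmrtc1b* from *Gm9112* (229 bases). In RefSeq, *Lypd4* and *Dmrtc2* overlap on opposite strands by 108 bases. RefSeq also has *Dmrtc1a* overlap its neighbour *1700011M02Rik* by 1241 bases, and leaves 210 bases between *Dmrtc1b* and *Gm9112*. The *Dmrtc1b* and *Dmrtc1a* windows aligned over 272 bases, of which 267 (98.2%) were identical.

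Short motifs were counted on both strands, and matches of different motifs were allowed to overlap. They were CCAAT of the CCAAT box, GCGGGAA as an E2F-type sequence, the palindrome GGCGCC, the E-box CACGTG, and ACANTGT as the core letters of a DM-domain site. The *Dmrtc2* window held 4 matches to CCAAT, which NF-Y binds, and 1.06% of all 32851 promoter windows held at least 4. This motif was singled out after the sequence had been seen. The window also held 1 match to GCGGGAA, present in 4.6% of windows, and 1 to GGCGCC, present in 11.9%. The *Dmrtc1b* window had 1 CCAAT match, as 37.4% of windows had at least 1, and 1 GCGGGAA match. *Dmrta2* had 3 CCAAT matches (at least 3 in 3.37% of windows), 2 of GGCGCC (2.04%) and 2 of ACANTGT (0.377%). The *Dmrt3* window held only 1 CCAAT match and that of *Dmrta1* held no match to any of the motifs. The *Dmrtc2* and *Dmrta2* windows each had 26 CpG dinucleotides, those of *Dmrt3*, *Dmrta1* and *Dmrtc1b* had 15, 13 and 9, and the median of all windows was 7. RefSeq lists a second start of *Dmrtc1b*, whose window (chrX:102710927-102711226) held 1 CpG and no match to the motifs. A match is a description of the letters and not of binding.

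*Dmrt1* (chr19:25505618-25604329) was measured at 25.6, 30.8, 41.6 and 24.3 CPM in control libraries 1 to 4 and at 75.0, 96.8, 98.3 and 105 CPM in cKO libraries 1 to 4. The lowest cKO library was above the highest control library. The mean was 30.6 ± 7.87 CPM in control and 93.8 ± 13.0 CPM in cKO ovaries (SD, n = 4 each), a Log2FC of 1.63 (standard error 0.14) or 3.10-fold. With any 1 library left out the Log2FC was 1.52 to 1.81.

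*Dmrt3* (chr19:25610301-25623921), which specifies spinal cord interneurons that coordinate gait, starts 5971 bases after the end of *Dmrt1* on the same strand. It stood at 1.89, 1.95, 2.15 and 1.33 CPM in control and at 3.46, 5.58, 4.61 and 3.82 CPM in cKO libraries. The cKO libraries were all higher, although the gene had only 21 to 23 counts in each control library. The mean went from 1.83 ± 0.355 to 4.37 ± 0.939 CPM, a Log2FC of 1.29 (standard error 0.22). The 2 adjacent genes thus shared a direction, and the count of *Dmrt3* per count of *Dmrt1* was 0.0518 to 0.0740 in control and 0.0364 to 0.0576 in cKO libraries, ranges that overlapped. *Dmrt2*, which follows in the same cluster (chr19:25672411-25678991) and acts in somites, was too low to be tested, at 0.514 ± 0.226 CPM in control and 0.383 ± 0.0932 CPM in cKO ovaries, with overlapping libraries.

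*Dmrta1* (chr4:89679436-89694772) was the steadiest of the 6 genes. Its control libraries gave 23.9, 26.9, 23.7 and 24.5 CPM and its cKO libraries 16.5, 18.1, 17.9 and 17.1 CPM, with a coefficient of variation of 5.96% and 4.48%. The mean of 24.8 ± 1.48 CPM in control and 17.4 ± 0.779 CPM in cKO ovaries gave a Log2FC of -0.51 (standard error 0.080). That value lay just past the threshold of 0.5, and *Dmrta1* was within it without control library 2 or without cKO library 1. Under germ cell marker scaling the Log2FC was -0.90.

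*Dmrta2* (chr4:109978053-109983687), a regulator of cortical patterning, was lower by a larger factor. It was at 9.78, 5.93, 11.3 and 7.45 CPM in control and at 2.98, 3.35, 4.71 and 3.41 CPM in cKO libraries, and the lowest control library was above the highest cKO library. The mean went from 8.62 ± 2.40 to 3.61 ± 0.756 CPM, a Log2FC of -1.25 (standard error 0.21). RefSeq places the opposite-strand transcript *Dmrta2os* across this gene, and since the strand setting of the counting was not given, reads of the pair may have been counted together.

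*Dmrtc1b* (chrX:102707865-102715209) was almost without reads in control ovaries. The control libraries held 2, 0, 0 and 0 counts and the cKO libraries 16, 46, 23 and 37 counts, that is 1.91, 3.42, 2.41 and 2.52 CPM (mean 2.57 ± 0.630 CPM, SD, n = 4). Each cKO library was thus above the level of 3 counts and each control library below it. Over the pooled libraries the level in cKO was 66.2 times that in control, a value that rests on 2 control counts. The gene was chosen for this difference and had enough counts only through its cKO libraries, so the ratio is a description. Of 1381 stretches of 100 bases in its transcript, 136 (9.848%) also occur in the pseudogenes *Gm9119*, *Gm9126* or *Gm9133*, and none occur in *Dmrtc1a*. *Dmrtc1a*, whose window is shown above, was at 0.857 ± 0.253 CPM in control and 0.743 ± 0.287 CPM in cKO ovaries (44 and 35 counts in all), with overlapping libraries and too few counts for a test. RefSeq also lists starts of *Dmrtc1a* with other windows (chrX:102906508-102906807 and chrX:102906420-102906719). Which start its reads came from was not tested. The other X-linked copies, *Dmrtc1c1* and *Dmrtc1c2*, have transcripts that are identical over all 1537 such stretches and had 0 counts in every library. Reads that fit both copies may not have been counted, so these 0 counts do not show that the genes were silent. They enter the summed family level below as 0.

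*Dmrtc2* (chr7:24870057-24877651) was at 33.1, 20.0, 32.2 and 31.3 CPM in control and at 2.15, 2.38, 6.39 and 9.55 CPM in cKO libraries. The genotypes did not overlap, yet the cKO libraries were far from uniform, with a coefficient of variation of 69.2% against 21% in control. The mean went from 29.1 ± 6.13 to 5.12 ± 3.54 CPM, a Log2FC of -2.45 (standard error 0.30) or 5.45-fold lower. The Log2FC was -3.04 without cKO library 4, which had the highest remaining level, and -2.17 without cKO library 2.

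**Figure D1:**
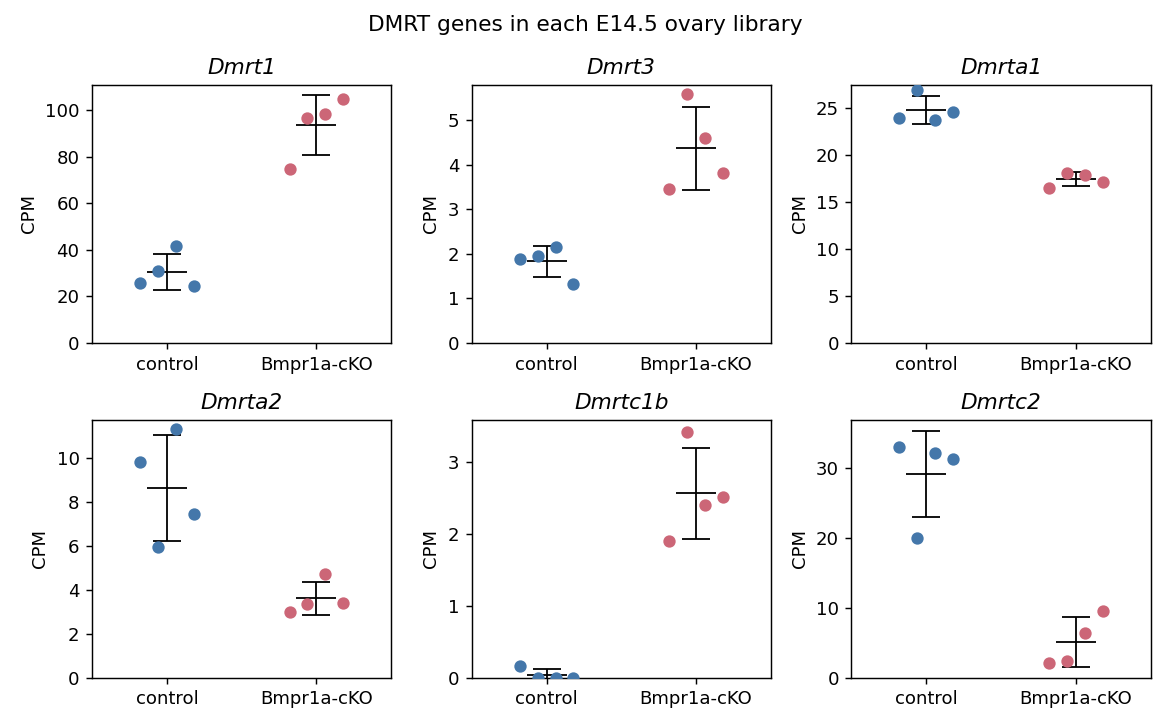
CPM of the 6 DMRT genes in each library (points, libraries 1 to 4 from left to right within a genotype), with the mean and SD of 4 libraries as bars and every axis starting at 0. The genotypes are apart in each panel, and cKO libraries of *Dmrtc2* spread from 2.15 to 9.55 CPM.

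**Figure D2:**
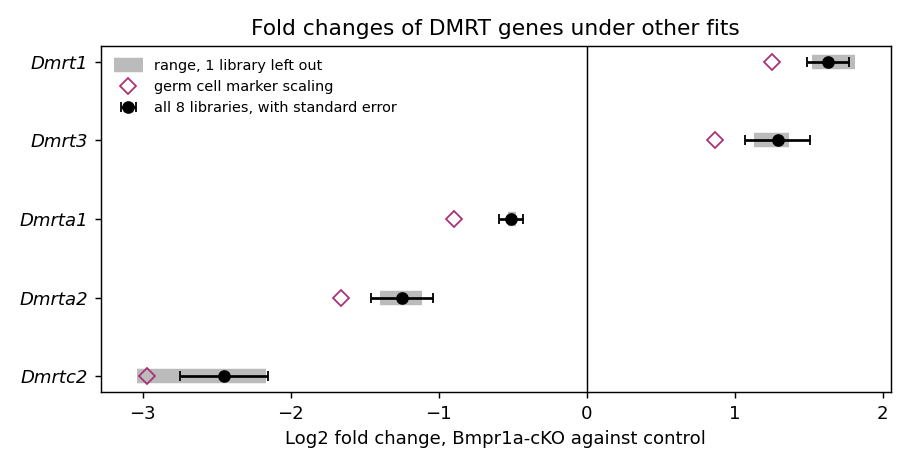
Log2FC of 5 DMRT genes, cKO against control, with the standard error (black), the range when 1 library is left out (grey) and the value under germ cell marker scaling (diamonds). No gene crosses 0, and *Dmrta1* is nearest to it at -0.51. *Dmrtc1b* is not drawn because its fitted value rests on 2 control counts.

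The count of *Dmrtc2* per count of *Dmrt1*, which does not depend on library scaling, was 1.29, 0.649, 0.775 and 1.29 in control libraries 1 to 4. In cKO libraries 1 to 4 it was 0.0286, 0.0246, 0.0650 and 0.0910. The 2 genes thus had about equal counts in control ovaries and far fewer counts for *Dmrtc2* than for *Dmrt1* in cKO ovaries. On the log2 scale the ratio went from -0.06 ± 0.51 to -4.47 ± 0.91, a difference of -4.40, which was -4.74 to -4.11 with any 1 library left out. Both genes were chosen for opposite differences, so a lower ratio in cKO was fixed by that choice and its size is a description.

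*Dmrtb1*, a family gene outside the 6, encodes DMRT6, which helps spermatogonia pass from mitosis to meiosis. It rose from 2.71 ± 0.661 to 13.5 ± 1.67 CPM (Log2FC of 2.34 ± 0.17, standard error; edgeR FDR = 2.36e-07). Among family genes outside the 6, *Dmrtb1* alone had enough counts for a test.

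Levels of different genes were compared as CPM per kb of exon. In control ovaries *Dmrtc2* had the highest level at 18.0 ± 3.79 CPM per kb, which was 43.2% of the summed level of the family, and *Dmrt1* followed at 11.8 ± 3.03 CPM per kb or 28.3%, with overlapping libraries. *Dmrta1* at 5.91 ± 0.352 and *Dmrta2* at 2.95 ± 0.822 CPM per kb came next, each apart from its neighbours in the order. *Dmrt3* at 0.748 ± 0.145 CPM per kb overlapped *Dmrtb1* above it (1.30 ± 0.317) and *Dmrtc1a* below it (0.617 ± 0.182), and *Dmrtc1b* was below them all.

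In cKO ovaries *Dmrt1* alone made up 65.2% ± 1.52 of the summed level, at 36.1 ± 5.02 CPM per kb. *Dmrtb1* was next at 6.46 ± 0.804 CPM per kb, apart from the genes on either side. *Dmrta1* (4.15 ± 0.186 CPM per kb) overlapped *Dmrtc2* (3.16 ± 2.19), which now held 5.42% of the summed level. *Dmrtc1b* (1.85 ± 0.456), *Dmrt3* (1.79 ± 0.384) and *Dmrta2* (1.24 ± 0.259) followed, each overlapping the gene before it. The summed level was 35.5 to 48.9 CPM per kb in control and 44.3 to 62.9 in cKO libraries, so that it overlapped while its makeup differed. The difference in makeup follows in part from the choice of *Dmrt1*, *Dmrtc1b* and *Dmrtc2* as differing genes.

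**Figure D3:**
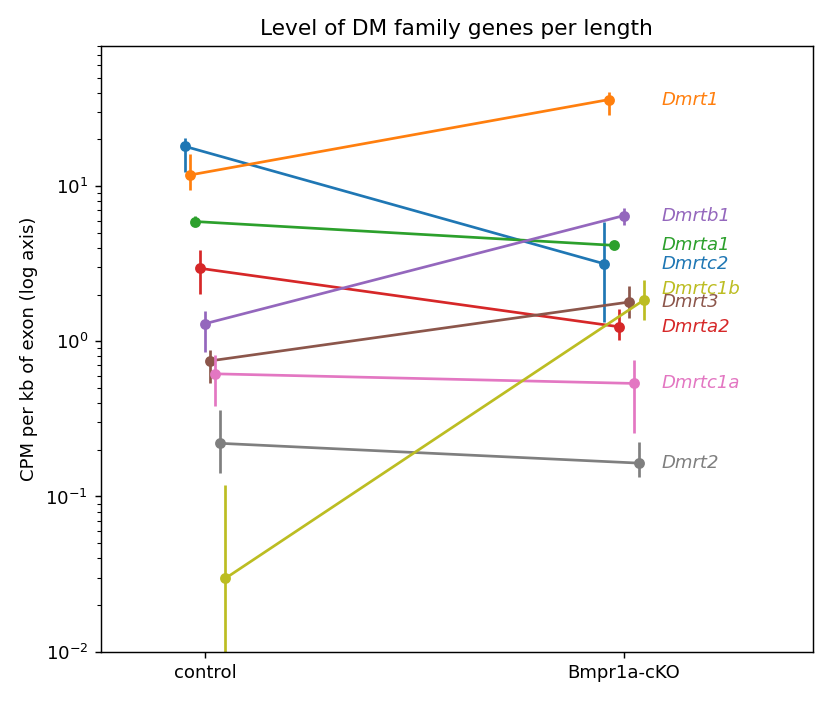
Mean level per kb of exon of 9 DM family genes in control and cKO ovaries on a log axis, with the range of 4 libraries as vertical lines. *Dmrtc2* leads in control at 18.0 and *Dmrt1* in cKO at 36.1 CPM per kb. The line of *Dmrtc1b* in control runs to the bottom of the axis because 3 libraries were at 0.

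The genes beside the DMRT genes were not part of their choice, and their genotype difference was tested in the fit over all genes. Of the nearest genes on each side, 6 were tested and 3 were DEGs, against 10.2% of all genes. The head-to-head partners of *Dmrtc2* and *Dmrtc1b* were 2 of these, and the third, *Kank1*, lost its call in several other fits. *Lypd4*, which encodes a GPI-anchored protein of the sperm, had 9.78, 6.02, 9.27 and 9.78 CPM in control and 0.596, 0.446, 1.47 and 2.52 CPM in cKO libraries. It fell with *Dmrtc2* (Log2FC of -2.71, standard error 0.33; FDR = 2.28e-05 by edgeR), from 8.72 ± 1.81 to 1.26 ± 0.956 CPM. The control library with the least *Dmrtc2*, library 2, also had the least *Lypd4*, and cKO library 4 had the most of both among cKO libraries. The count of *Lypd4* per count of *Dmrtc2* was 0.288 to 0.312 in control and 0.188 to 0.278 in cKO libraries. How far reads from the 108 bases that RefSeq gives to both genes enter these values was not tested.

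*Gm9112*, an annotated protein-coding gene, had 6, 3, 2 and 1 counts in control and 32, 67, 36 and 96 counts in cKO libraries. It rose with *Dmrtc1b*, from 0.252 ± 0.181 to 4.78 ± 1.31 CPM (Log2FC of 4.28, standard error 0.37; FDR = 9.89e-07 by edgeR). In cKO libraries 1 to 4 there were 2, 1.46, 1.57 and 2.59 counts of *Gm9112* per count of *Dmrtc1b*, so that the partner had the more reads in each. *1700011M02Rik*, which was looked at after these values were seen, had 0 counts in control and 2 counts in cKO ovaries. It lies beside *Dmrtc1a* in the same arrangement in GENCODE vM21, whereas RefSeq has the 2 genes overlap by 1241 bases.

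*Kank1*, a cytoskeletal regulator that ends 71121 bases before *Dmrt1*, rose from 70.7 ± 0.754 to 101 ± 1.83 CPM (Log2FC of 0.51; FDR = 6.65e-06 by edgeR). Its Log2FC was at the threshold, and the call was lost in 8 of 18 alternative fits, which were those without control library 2 or 4 or cKO library 1, DESeq2, the fit without a filter on low counts, and scaling by RLE, by library size or by germ cell markers. The Log2FC was 0.46 to 0.50 in these fits except for 0.13 under germ cell marker scaling (FDR = 0.571 by edgeR). *Faf1*, which lies 14092 bases before *Dmrta2*, had a Log2FC of -0.07 (FDR = 0.448 by edgeR), *Elavl4* on the other side of *Dmrta2* one of 0.20 (FDR = 0.699), and *Rps19*, which lies 6719 bases after *Dmrtc2*, one of -0.03 (FDR = 0.779). *Gm12610*, the nearest gene before *Dmrta1*, was too low to be tested, at 0.164 ± 0.165 and 0.740 ± 0.227 CPM.

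For comparison, 691 pairs of tested genes lay head to head within 1000 bases across the genome. A DEG was present in 85 of these pairs, and in 6 of them (7.06%) both genes were DEGs in the same direction. *Dmrtc2* with *Lypd4* and *Dmrtc1b* with *Gm9112* were 2 of the 6. The share is a description, because *Dmrtc2* and *Dmrtc1b* were chosen as differing genes.

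**Figure D4:**
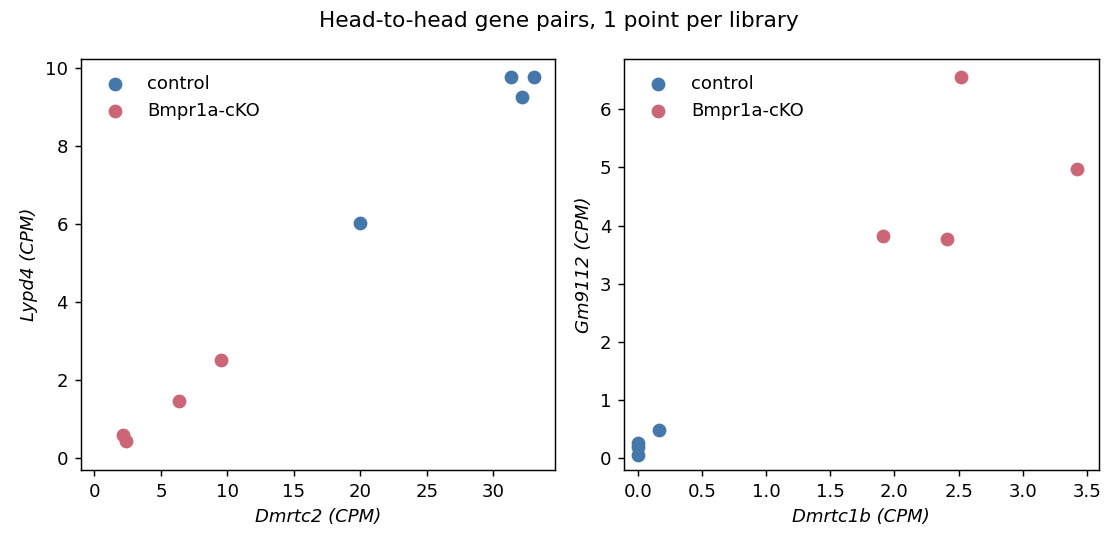
CPM of *Dmrtc2* against *Lypd4* (left) and of *Dmrtc1b* against *Gm9112* (right), 1 point per library. Both genes of the left pair are lower in cKO libraries, and both genes of the right pair are higher, from 1.91 to 3.42 CPM for *Dmrtc1b*.

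The genes most alike in pattern were those with the smallest root mean square difference from a DMRT gene over the 8 libraries, in log2 CPM relative to each gene's control mean. For *Dmrtc2* they were *Lypd4* (0.170), *Rad21l*, a meiotic cohesin subunit (0.274), and *Meiob*, a factor of meiotic recombination (0.306). In the cKO libraries *Rad21l* stood at 1.67, 1.64, 3.04 and 7.10 CPM and *Meiob* at 0.477, 1.04, 1.57 and 2.32 CPM. Both were, like *Dmrtc2*, highest in cKO library 4. For *Dmrtc1b* they were *Gm9112* (0.335), *Fam83a* (0.368) and the X-linked *Gm14569* (0.388).

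For *Dmrt1* the 3 closest genes were *Itgb3* (0.089), an integrin subunit, *Ppm1h* (0.113), a phosphatase, and *Ap3b2* (0.122), an adaptor of vesicle transport. *Itgb3* was lowest among cKO libraries in library 1, at 64.0 CPM, and highest among controls in library 3, at 35.5 CPM, as *Dmrt1* was. For *Dmrta1* they were *Limch1* (0.040), *Gamt* (0.054) and *Cnksr2* (0.064), the smallest differences found for any of the 6 genes. The closest genes were farther off for *Dmrt3*, with *Rab20* (0.116), *Dlec1* (0.133) and *Arg1* (0.143). For *Dmrta2* they were *4930432K21Rik* (0.184), also named *Brme1* and a factor of meiotic recombination, *Doc2a* (0.188) and *Cacna2d2* (0.189), again farther off. These are descriptions over 8 libraries that share the genotype contrast.

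Genes that DMRT1 is known to control or act with in germ cells were listed next. Of 13 listed, 10 were tested, 6 were higher DEGs (6.11% of all genes were) and 0 were lower DEGs, with a median Log2FC of 0.69 against -0.004 for all genes tested. Several of the listed genes, such as *Nanog* and *Sox2*, are ones that the study picked out in these libraries, so the count is not independent evidence of a direction. *Sohlh2*, a regulator of early spermatogonial and oocyte differentiation, rose from 81.1 ± 15.0 to 158 ± 18.7 CPM (Log2FC of 0.97; FDR = 1.23e-05 by edgeR). *Nodal*, a signal of fetal male germ cells and pluripotency, rose from 0.250 ± 0.139 to 1.30 ± 0.414 CPM (Log2FC of 2.42; FDR = 5.14e-04 by edgeR). *Nanog*, *Lefty1* and *Sox2* rose with Log2FC of 1.59, 2.06 and 0.80 (FDR = 9.78e-06, 8.19e-04 and 2.46e-04 by edgeR). In control ovaries *Nodal* and *Lefty1* (0.352 ± 0.179 CPM) were close to the level of 3 counts per library, so their Log2FC rest on few control reads. *Pou5f1*, which is *Oct4*, rose with a Log2FC of 0.58 (FDR = 0.0235 by edgeR), but its libraries overlapped and the call was lost in 5 of the 8 fits that left out 1 library (control 1 or 4, cKO 2, 3 or 4), with FDR = 0.0589 to 0.0663. Its Log2FC was 0.38 without control library 4 and 0.55 by DESeq2 (FDR = 0.116). Under germ cell marker scaling the Log2FC of *Sox2* was 0.40 (FDR = 0.0985 by edgeR) and that of *Pou5f1* 0.20 (FDR = 0.396 by edgeR). *Ret*, a receptor of spermatogonial stem cells, had a Log2FC of -0.45 (FDR = 0.0442 by edgeR), within the fold threshold. *Stra8*, a direct target of DMRT1 in the fetal ovary, had 105 ± 10.2 CPM in control and 129 ± 28.3 CPM in cKO ovaries (FDR = 0.0731 by edgeR).

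Lists matched to the other roles of the family held DEGs at shares that are read against the 10.2% of all genes tested. Among sex body genes, the setting in which DMRT7 acts in males, 10 were tested and 1 was a DEG, *Atr*, a DNA damage kinase, which fell with a Log2FC of -0.69 (FDR = 5.38e-05 by edgeR). Genes of this list with an FDR below 0.05 went in both directions, with a Log2FC of 0.48 for *Scml2* and 0.44 for *Bard1* but -0.36 for *Mdc1*. The list median was -0.23. Among 6 tested genes of neural patterning, *Lhx2* fell with a Log2FC of -0.66 (FDR = 0.0248 by edgeR; the call was lost without control library 1 or 3 or cKO library 2 or 3, with FDR = 0.0548 to 0.0740) and the median was -0.23. *Hes1* in this list had a Log2FC of -0.35 and so was within the threshold of 0.5. Under germ cell marker scaling 6 sex body and 4 neural genes were DEGs. The 10.2% does not apply there, because 3989 of all 14249 genes tested were then DEGs, 3678 of them lower.

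DMRT1 also maintains Sertoli cells and opposes the granulosa program in the testis, and both programs were therefore listed. Of 8 tested Sertoli cell genes, *Cyp26b1*, which degrades retinoic acid, fell (Log2FC of -0.61; FDR = 0.0205 by edgeR), a call lost without control library 1 (FDR = 0.0708) or cKO library 2 (FDR = 0.0817), and none rose. *Sox9* was at 9.25 ± 0.925 CPM in control and 6.84 ± 0.568 CPM in cKO ovaries, within the fold threshold. Of 8 pregranulosa cell genes, *Foxl2*, a granulosa cell transcription factor, fell from 118 ± 3.93 to 79.4 ± 7.30 CPM (Log2FC of -0.57; FDR = 1.80e-05 by edgeR). The others were within the fold threshold, yet 7 of the 8 genes had an FDR below 0.05 by edgeR, all of them lower in cKO ovaries. They included *Rspo1* (Log2FC of -0.48; FDR = 1.12e-04 by edgeR) and *Irx3* (Log2FC of -0.46; FDR = 0.00235 by edgeR). The list median was -0.35, against -0.004 for all genes tested.

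**Figure D5:**
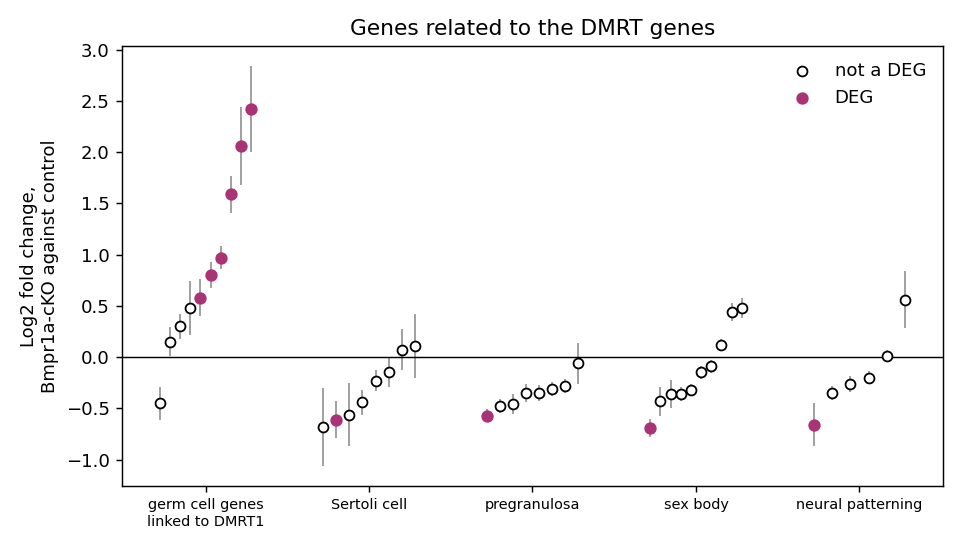
Log2FC, cKO against control, of each tested gene in 5 lists tied to roles of DMRT genes, with standard errors as bars and DEGs filled. The 6 DEGs of the germ cell list lie above 0, from 0.58 to 2.42, and the single DEG of each other list lies below 0. The highest value, that of *Nodal*, rests on few control reads.

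Marker levels of the cell types that an ovary library could hold, and of the Sertoli list, were summed per library and stand beside the DMRT values. Sertoli cells belong to the testis, so the Sertoli sum gives the level of the listed genes and not of a cell type. The 4 germ cell markers with a row summed to 486 to 659 CPM in control and 545 to 875 CPM in cKO libraries, which overlapped, and within them *Dazl* and *Dnd1* rose (Log2FC of 0.63 and 0.78; FDR = 0.00101 and 0.00151 by edgeR) while *Mael* fell (Log2FC of -0.80; FDR = 5.07e-04 by edgeR). Pregranulosa markers summed to 828 to 891 against 601 to 761 CPM, Sertoli markers to 39.1 to 43.2 against 30.8 to 35.0 CPM and macrophage markers to 22.4 to 28.5 against 29.3 to 37.4 CPM, each without overlap. Markers of mesonephros, the duct tissue attached to the fetal gonad, summed to 23.4 to 27.5 against 17.3 to 25 CPM, those of neurons and glia to 13.0 to 13.9 against 12.5 to 16.2 CPM, those of endothelium to 258 to 303 against 243 to 280 CPM, and those of erythroid cells to 239 to 316 against 184 to 269 CPM with *Hba-a1* and *Hbb-bt* at 0. The part of these cell types in the DMRT values was not tested.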

How the data were processed

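RNA-Seq was carried out on 8 pools of E14.5 ovaries. Per the labels and the methods, the authors trimmed reads with Trimmomatic 0.39, checked them with FastQC 0.11.9, mapped them to mm10 with STAR 2.5.2 and deposited raw counts per gene symbol. The annotation and the strand setting are not given in the sources used here. The deposited CPM table was not used.

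Counts were analysed in R 4.3.3 with edgeR 4.0.16 (filterByExpr, TMM, quasi-likelihood test, two-sided, Benjamini-Hochberg over 14249 genes), after testing on simulated data. DESeq2 1.42.0 and voom of limma 3.58.1, other scalings and filters, the replicate number as a block and each library left out were alternatives. Symbols were matched to GENCODE vM21 (24366 of 25239). Promoters came from RefSeq, and 5 of the 6 genes had a window.

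The DMRT genes and all lists were chosen with earlier results of these data known. Named genes were the DMRT family, DEGs of the lists, the nearest genes on each side and the 3 tested genes most alike to each. Pools held different embryos, but litters may be shared between them, so p-values measure the spread between these pools. A listed marker gene is not reported here.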

Additional observations from a re-analysis of the deposited data

Results flagged for a closer look

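Among 28 groups of 4 libraries (the tested DMRT family genes, their tested neighbours and the *Dmrtc2* to *Dmrt1* ratio, in each genotype), 4 had 1 library far from the other 3, where chance gives such a gap in about 1 in 20 groups. *Dmrtc2* in control library 2 was at 20.0 CPM, against 31.3 to 33.1 CPM in the other control libraries. *Lypd4*, its head-to-head partner, was also low in control library 2, at 6.02 CPM against 9.27 to 9.78 CPM. *Dmrtc1b* had 0.164 CPM in control library 1 and 0 in the other controls, which is 2 counts against 0, so that any count at all would have stood apart and the 1 in 20 does not apply to it. *Kank1* in cKO library 1 was at 103 CPM, against 99.4 to 99.9 CPM in the other cKO libraries.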

How the results depend on the processing

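Germ cell marker scaling gave 3989 DEGs, 311 higher and 3678 lower, and a Log2FC of 1.25 for *Dmrt1*, 0.87 for *Dmrt3*, -0.90 for *Dmrta1* and -1.66 for *Dmrta2*, with 5 Sertoli, 7 pregranulosa, 6 sex body and 4 neural list DEGs. Library size scaling gave 3 pregranulosa DEGs, and no filter on low counts gave 2 neural DEGs. With 1 library left out, *Dmrtc1b* had a fitted Log2FC of 5.24 to 7.98, Sertoli DEGs numbered 0 to 2, pregranulosa 1 to 2, sex body 1 to 2 and neural 0 to 3. *Elavl4* turned to -0.23 under germ cell marker scaling and ranged from -0.07 (without cKO library 3) to 0.34 with 1 library left out, and *Rps19* from -0.09 to 0.00 (without control library 1). The cause was not tested. The DMRT genes kept their direction in all 18 alternative fits, and only *Dmrta1* came within the fold threshold, in 2 of them. Because the genes were chosen with this contrast in view, that describes the fits and is no test of the genes. Of 594 refits of 33 other named genes, 562 kept direction and call, 23 lost the call, 6 gained it and 3 turned direction.

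Deviations of equally numbered control and cKO libraries correlated at 0.198, 0.161, 0.108 and -0.0871, and those of differently numbered libraries at -0.198 to 0.182. These values overlap and do not settle whether the numbers mark pairs, so the main fit did not pair them. With the replicate number as a block there were 1457 DEGs and 2 neural DEGs. Depth limits *Dmrtc1b*, *Dmrt2* and *Dmrtc1a*, which had 2, 25 and 44 counts over the control libraries.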
